A study of Mus musculus with 9 samples.

Results

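The respiratory chain of B16F10 mouse melanoma cells was followed at the transcript level after 600 µM hypochlorous acid (HOCl), the oxidant that neutrophil myeloperoxidase makes. Members were found by symbol: Ndufa, Ndufb, Ndufc, Ndufs and Ndufv genes, Uqcr genes, Cox4 to Cox8 genes, Sdha to Sdhd, Atp5 genes and the 13 protein genes of the mitochondrial genome. That gave 111 of the 54838 genes counted, after 9 symbols ending in -ps (pseudogenes) were left out. Of these, 88 were counted as nuclear-encoded subunits: 39 of complex I, 4 of complex II, 8 of complex III, 20 of complex IV and 17 of complex V. These 88 include 4 genes that GENCODE M21 annotates as processed pseudogenes without -ps in the symbol (Ndufa11b, Ndufb4c and Ndufs6b in complex I and Cox6c2 in complex IV), none of them above 1.47 CPM (counts per M gene counts) in B16F10. The 13 mitochondrially encoded subunits were 7 of complex I, 1 of complex III, 3 of complex IV and 2 of complex V. A further 8 Ndufaf assembly factors, with Ndufa4l2 and Atp5s, matched the symbols but are not counted as subunits. Ndufa4 was placed in complex IV, where its protein is now assigned.

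Complex I oxidises NADH and complex II succinate, and both pass electrons to coenzyme Q. Complex III hands these electrons to cytochrome c, complex IV reduces oxygen with them, and complex V, the ATP synthase, uses the proton gradient that complexes I, III and IV build. The mitochondrial genome encodes membrane core subunits of complexes I, III, IV and V, made inside the organelle from long precursor transcripts. All other subunits, and the whole of complex II, come from nuclear genes, many of whose promoters are known to bind NRF1, GABPA (an ETS factor) and YY1.

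Untreated B16F10 cells (3 libraries) and B16F10 cells given 600 µM HOCl (3 libraries) had been plated and cultured before 5 h in medium without or with the oxidant. CD8+ T cells isolated from C57BL/6 mouse spleens with a kit were treated likewise, with 2 untreated libraries and 1 HOCl library. B16F10 is a single established line from a C57BL/6 melanoma, and no source used here says whether its replicates were separate cultures, so a p-value here reflects how far the libraries of a group differ, which may be technical variation. B16F10 libraries held 45.9 to 61.3 M gene counts, the untreated T cell libraries 49.9 and 52.1 M and the T cell HOCl library 12.8 M. The 9 melanocyte lineage markers checked (such as Pmel, Dct and Tyrp1) were above 0 in all 6 B16F10 libraries and summed to 24699 to 25762 CPM. The 11 T cell markers summed to 5.51 to 7.25 CPM in 5 of these libraries and to 41.6 CPM in HOCl replicate 3. The 5 B cell markers likewise summed to 0.588 to 1.06 CPM in those 5 libraries and to 16.03 CPM in HOCl replicate 3. The part of either in the results below was not tested.

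Nuclear-encoded subunits were lower after HOCl, by small amounts. Of 88 such genes, 81 passed the filter on low counts, and 25 of these fell past the threshold (adjusted p under 0.05) while 0 rose, by the quasi-likelihood test of edgeR (Benjamini-Hochberg adjustment over all 16082 genes tested). Among all genes tested, 13.5% fell and 14.7% rose by that rule, so that 28.3% changed in either direction. The log2 fold change was below 0 in 79 of the 81, with a median of -0.18, against -0.01 over all genes tested. Without the 3 annotated pseudogenes that were tested, 25 of 78 fell, with the same median of -0.18. By the fold change of the edgeR fit, these 25 fell by 8.53% to 22.8%. In 32 of the 81, the 3 HOCl libraries lay below all 3 untreated ones without overlap, which held for 18.4% of all genes tested. In such bulk samples, fewer cells expressing a gene and less RNA per cell cannot be told apart.

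Read as a summed share of each library's gene counts, the nuclear subunits took 1.53%, 1.34% and 1.34% in the untreated libraries and 1.32%, 1.31% and 1.25% in the HOCl libraries. The groups did not overlap, yet the gap between them was far smaller than the gap between untreated replicate 1 and the other 2 untreated libraries. The 95% Wilson interval of the untreated replicate 1 share, 1.53% to 1.53%, covers counting error only. By complex, these shares were 0.365%, 0.311% and 0.312% untreated and 0.305%, 0.3004% and 0.285% with HOCl for complex I. Complex V, the most abundant, took 0.616%, 0.557% and 0.564% untreated and 0.555%, 0.549% and 0.529% with HOCl. For complex IV the groups overlapped, at 0.307%, 0.260% and 0.258% untreated against 0.260%, 0.259% and 0.241%.

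**Figure D1:**
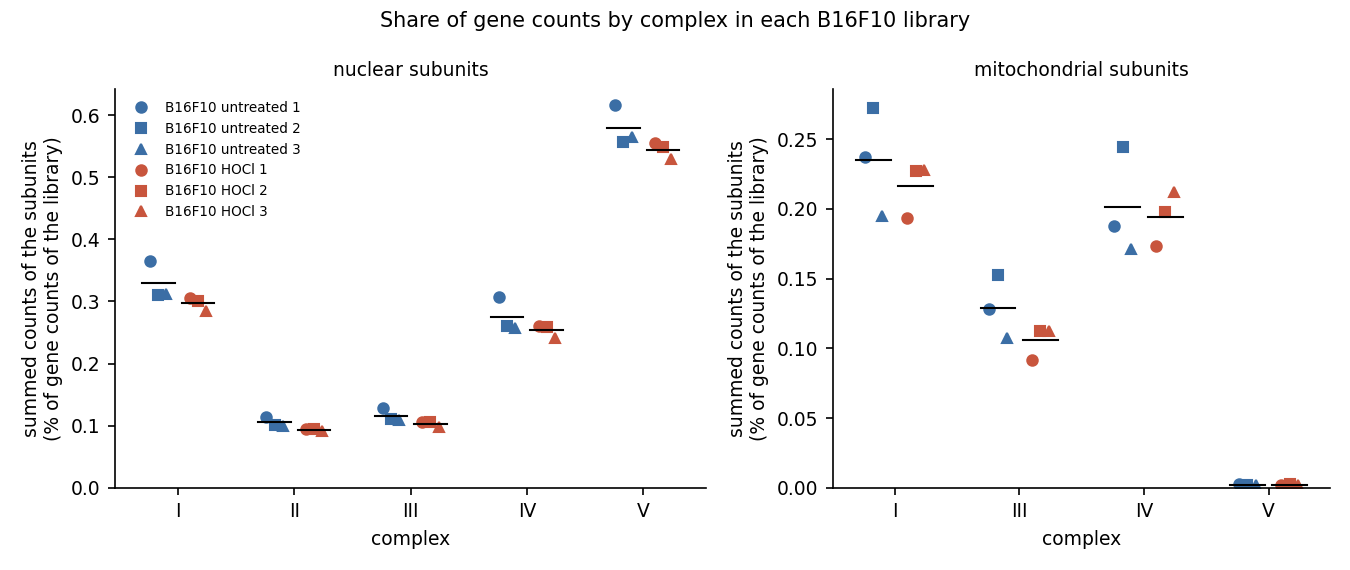
Summed counts of the subunits of each complex as a percentage of the library's gene counts (vertical axis) for nuclear subunits (left) and mitochondrially encoded subunits (right). Each symbol is 1 of the 6 B16F10 libraries, blue untreated and red HOCl, and black bars are group means. Untreated replicate 1 was the highest library in all 5 nuclear complexes, and the mitochondrial shares of the groups overlapped.

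Untreated replicate 1 stood apart for these genes, and its height followed transcript length across the whole transcriptome. It had the highest CPM of the 6 libraries for 76 of the 81 nuclear subunits tested, and HOCl replicate 3 had the lowest for 70. Nuclear subunits have short transcripts, with a median of 809 bases against 2615 over all genes tested. Among all 1397 genes of up to 700 bases, the median log2 CPM of untreated replicate 1 lay 0.16 above the mean of the 6 libraries and that of HOCl replicate 3 lay 0.09 below it (-0.09). Among the 4263 genes of over 4000 bases the order was turned round, with -0.16 and 0.08. The 33 nuclear subunits of up to 700 bases had 0.26 in untreated replicate 1 and -0.14 in HOCl replicate 3, further out than all genes of that length. Without untreated replicate 1 the median log2 fold change of the nuclear subunits was -0.09 in place of -0.18, and 28 fell past the threshold, 22 of them among the 25.

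**Figure D2:**
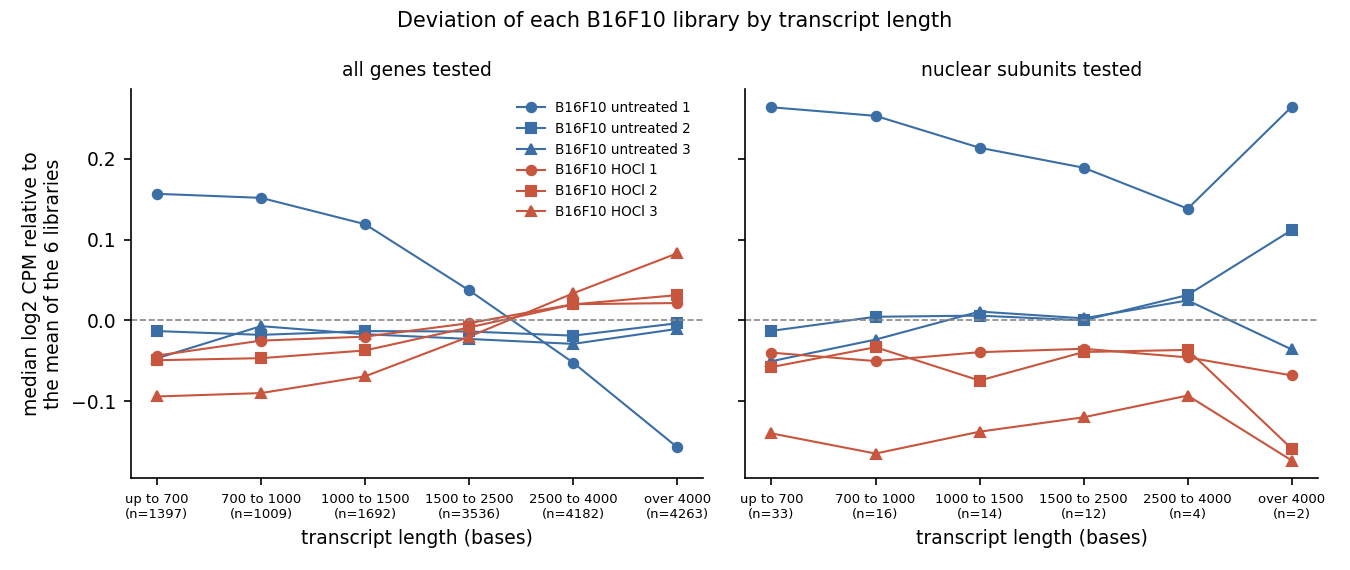
Median log2 CPM of each B16F10 library relative to the mean of the 6 libraries (vertical axis) by transcript length class (horizontal axis, bases, with the number of genes), for all genes tested (left) and the nuclear subunits tested (right). Blue lines are untreated and red lines HOCl libraries. Untreated replicate 1 ran from 0.16 in the shortest class of all genes to -0.16 in the longest, and lay above the other 5 libraries in each class of the nuclear subunits, of which the 2 longest held only 4 and 2 genes.

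A fit with a length-dependent offset for each library, chosen after seeing the data, gave the same number of calls and smaller sizes. With that offset 25 nuclear subunits fell and 0 rose, 21 of them the same genes, where 17% of all genes fell. The median log2 fold change was then -0.08. Ndufa10, Ndufs1, Ndufv2 and Sdha entered the list, and Atp5g3, Ndufa3, Ndufa9 and Ndufs6 left it (named after their values were seen). No other test of the length trend was made.

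**Figure D3:**
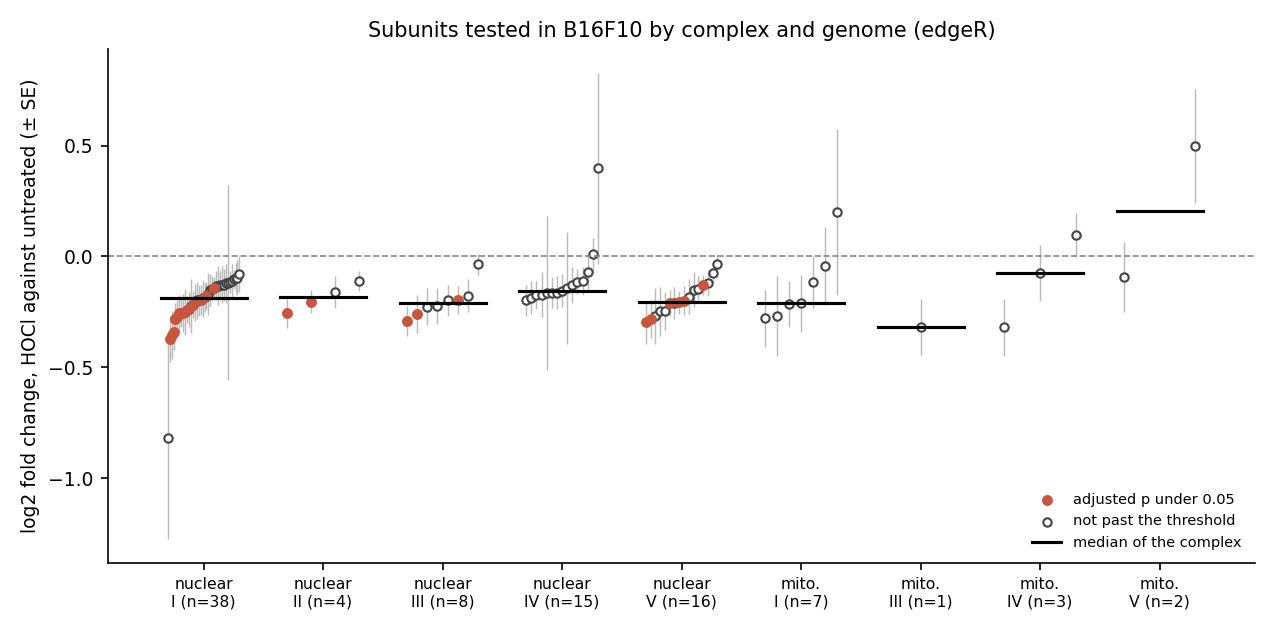
Log2 fold change of HOCl against untreated B16F10 with its standard error (SE, vertical axis) for each subunit tested, grouped by complex and by the genome that encodes it (horizontal axis, with the number tested). Filled points passed an adjusted p of 0.05 in edgeR, and bars are medians. Nuclear medians lay between -0.21 and -0.15, and none of the 13 mitochondrially encoded subunits passed.

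Complex I gave 14 of the 25 falls, among 38 nuclear subunits tested, where 13.5% of all genes tested fell. All 38 were below 0, with a median log2 fold change of -0.19. Of the 7 nuclear subunits of its catalytic core, which carry the flavin and the iron-sulfur clusters, Ndufs3 and Ndufs7 were among those that fell. Ndufs7, the core subunit with the last cluster before coenzyme Q (chromosome 10, 80249121 to 80256794, GRCm38), had 100.3, 77.6 and 84.0 CPM untreated and 72.4, 71.5 and 67.2 CPM with HOCl. The groups did not overlap, and the log2 fold change was -0.34 ± 0.08 (SE) with an adjusted p of 0.00983 in edgeR's quasi-likelihood test. Ndufs3, another core subunit (chromosome 2, 90894634 to 90904827), went from 89.4, 81.7 and 80.5 CPM to 77.0, 70.1 and 69.9 CPM, again without overlap. The flavin-carrying Ndufv1 did not pass, with 136, 115 and 123 CPM untreated against 117, 119 and 113 CPM.

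Among 31 accessory subunits tested, 11 fell (13.5% of all genes did). Ndufab1, the mitochondrial acyl carrier protein, which is also used in lipoic acid synthesis (chromosome 7, 122085403 to 122101886), had 62.1, 56.1 and 53.9 CPM untreated and 49.9, 48.5 and 48.6 CPM with HOCl. All HOCl values lay below all untreated ones, with a log2 fold change of -0.26 ± 0.06 and an edgeR adjusted p of 0.00902. Ndufa5 (chromosome 6, 24518666 to 24528013) dropped from 153, 126 and 125 CPM to 114, 117 and 107 CPM. The largest fall past the threshold, -0.37 on the log2 scale, was that of the membrane-arm subunit Ndufa11 (chromosome 17, 56717767 to 56722141), from 46.8, 35.9 and 35.8 CPM to 32.8, 32.0 and 28.6 CPM. Ndufv3, Ndufb10, Ndufb2, Ndufb3, Ndufs6, Ndufs4, Ndufa9 and Ndufa3 fell by 0.14 to 0.35 on the log2 scale. By contrast, Ndufa1 and Ndufc2, the nuclear complex I genes with the highest levels per kb over the union of exons (150 and 147 CPM per kb untreated), had log2 fold changes of -0.10 ± 0.08 and -0.21 ± 0.08 and did not pass.

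Promoters are shown for 4 of the genes that fell, because each carries a match to a motif of the factors known to bind respiratory chain promoters. Windows run from 250 bases before to 50 after a transcription start in RefSeq (GRCm38.p6), written 5′ to 3′ on the gene's strand, with matches in capitals. These are the palindromic NRF1 motif (the capitals of Ndufa11), CCGGAAG or CTTCCGG, its other strand, for ETS factors such as GABPA, and AAGATGG for the YY1 core.
Ndufa11 (chr17:56717512-56717811, plus strand): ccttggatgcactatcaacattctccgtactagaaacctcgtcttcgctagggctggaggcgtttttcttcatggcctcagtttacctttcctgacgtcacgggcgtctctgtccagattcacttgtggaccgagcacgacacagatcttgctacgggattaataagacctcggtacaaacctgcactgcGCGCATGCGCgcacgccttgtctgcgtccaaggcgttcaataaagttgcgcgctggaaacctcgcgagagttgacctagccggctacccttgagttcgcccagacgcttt
Ndufs3 (chr2:90904672-90904971, minus strand): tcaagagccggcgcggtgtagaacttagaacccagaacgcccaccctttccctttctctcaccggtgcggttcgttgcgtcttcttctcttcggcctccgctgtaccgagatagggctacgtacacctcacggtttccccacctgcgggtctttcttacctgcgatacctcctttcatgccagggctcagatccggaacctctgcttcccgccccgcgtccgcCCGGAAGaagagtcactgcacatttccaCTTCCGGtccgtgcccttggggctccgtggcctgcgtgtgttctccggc
Ndufs7 (chr10:80249199-80249498, plus strand): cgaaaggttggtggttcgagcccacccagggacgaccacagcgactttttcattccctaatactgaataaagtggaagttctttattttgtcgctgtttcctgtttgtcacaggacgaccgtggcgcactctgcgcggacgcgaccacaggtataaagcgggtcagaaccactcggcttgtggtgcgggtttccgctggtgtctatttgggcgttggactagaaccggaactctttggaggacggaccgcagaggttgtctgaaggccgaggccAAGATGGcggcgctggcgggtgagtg
Atp5k (chr5:108434350-108434649, minus strand): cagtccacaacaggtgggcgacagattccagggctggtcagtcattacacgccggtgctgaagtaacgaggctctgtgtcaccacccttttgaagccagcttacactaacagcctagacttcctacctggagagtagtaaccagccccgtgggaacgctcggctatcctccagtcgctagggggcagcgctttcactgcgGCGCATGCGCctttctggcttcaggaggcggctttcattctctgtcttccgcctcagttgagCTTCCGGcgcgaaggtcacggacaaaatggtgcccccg
In Ndufs7 the core is followed by cggc, which completes the longer YY1 motif. Ndufs3 has the ETS letters in both orientations, and Atp5k has 1 NRF1 and 1 ETS match.

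The motifs were counted in all nuclear subunits and by call. RefSeq windows were found for 67 of the 88 genes, 72 windows in all, and both strands were searched. NRF1's letters stood in 5 of the 72 (6.94%) against 0.971% of all 32851 windows in the table. ETS letters stood in 16 (22.2%, against 8.86%), the YY1 core in 10 (13.9%, against 6.34%) and the longer YY1 motif, which contains the core, in 4 (5.56%, against 0.633%). Read by call, 23 genes that fell had 25 windows, and 41 genes that did not pass had 44. The longer YY1 motif was in 4 of those 25 windows (Ndufa9, Ndufs4, Ndufs6 and Ndufs7, all of complex I) and in 0 of those 44. The YY1 core was in 5 of those 25 windows and in 5 of those 44, the NRF1 motif in 3 and 2, and ETS letters in 5 and 11. No test of these differences was made. These are matches of letters and not measured binding.

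Complex II, the only complex without a mitochondrially encoded subunit, had 2 of 4 genes fall past the threshold (13.5% of all genes did). Sdhb, which carries its iron-sulfur clusters (chromosome 4, 140961203 to 140979193), stood at 522, 431 and 432 CPM untreated and at 395, 398 and 388 CPM with HOCl. Its log2 fold change was -0.26 ± 0.07 with an edgeR adjusted p of 0.0156. Sdhd, a membrane anchor (chromosome 9, 50596357 to 50603812), went from 160, 151 and 145 CPM to 137, 135 and 132 CPM. Neither gene's groups overlapped. The flavoprotein Sdha had non-overlapping values as well, 297, 295 and 292 CPM against 281, 280 and 273 CPM, but its adjusted p was 0.0745 in edgeR. The other anchor, Sdhc, overlapped between groups.

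In complex III, 3 of 8 nuclear subunits fell (13.5% of all genes did), and 6 of 8 had HOCl values below all untreated ones (18.4% of all genes). Uqcrfs1, the Rieske iron-sulfur protein (chromosome 13, 30540308 to 30545362), had the smallest adjusted p of all nuclear subunits. It dropped from 113, 96.4 and 94.8 CPM to 84.9, 86.8 and 82.0 CPM, a log2 fold change of -0.29 ± 0.07 with an edgeR adjusted p of 0.00745. The core protein gene Uqcrc1 (chromosome 9, 108936633 to 108949623) went from 253, 218 and 225 CPM to 213, 211 and 195 CPM, and the hinge protein gene Uqcrh from 151, 122 and 116 CPM to 112, 113 and 106 CPM. Uqcr10 and Uqcr11, small subunits with the highest nuclear levels per kb in this complex (229 and 175 CPM per kb untreated), had -0.22 and -0.23 without passing. The other core protein gene, Uqcrc2, was the exception, at 125, 135 and 131 CPM untreated and 132, 127 and 130 CPM with HOCl, so that the groups overlapped throughout.

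Complex IV had 0 of 15 nuclear subunits past the threshold in edgeR. An unadjusted p under 0.05 was found for 4 of them, and for 6294 of all 16082 genes tested. Of the 15, 13 lay below 0, with a median of -0.15. DESeq2 called 2, Cox7b and Ndufa4, and so did the authors' deposited table. Cox7b stood at 277, 238 and 226 CPM untreated and 222, 227 and 210 CPM with HOCl (edgeR adjusted p 0.0532). Cox6a1 and Cox8a, the most abundant per kb over the union of exons (422 and 389 CPM per kb untreated), had log2 fold changes of -0.16 ± 0.07 and -0.11 ± 0.06. For Cox8a the values were 255, 232 and 235 CPM against 234, 234 and 213 CPM, where HOCl replicates 1 and 2 lay among the untreated libraries. The order of levels depends on the length used: Cox4i1 led complex IV by longest transcript (490 CPM per kb) and Ndufa4 by principal transcript (762 CPM per kb). The difference between complex IV and the other complexes was not tested.

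Complex IV is also where tissue isoforms are known, and B16F10 used the widely expressed ones. Cox4i1 had 433, 343 and 348 CPM untreated and 360, 356 and 333 CPM with HOCl, while Cox4i2, the isoform of lung and hypoxic cells, had at most 0.0163 CPM in any of the 6 libraries. The heart and muscle isoforms were low or near 0. Cox6a2 reached at most 0.612 CPM, Cox7a1 at most 0.685 CPM and Cox8b at most 0.0420 CPM, against 139 to 179 CPM for Cox7a2, 213 to 255 CPM for Cox8a and 260 to 333 CPM for Cox6a1. Cox6b2, Cox7b2 and Cox8c, known from testis, stood at up to 0.189, 0.152 and 0 CPM, and a count of 0 allows up to 0.0489 to 0.0654 CPM at these depths. HOCl did not bring any of the low isoforms past the threshold, and Cox4i2, Cox6b2, Cox7b2, Cox8b and Cox8c were too low to test. Cox7a2l, which helps join complexes III and IV, was 1 of 2 nuclear subunits with a log2 fold change above 0, at 0.01 ± 0.07, the other being Cox6a2.

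In complex V, 6 of 16 subunits tested fell (13.5% of all genes did), with a median of -0.20. Atp5c1, the gamma subunit that turns in the catalytic head (chromosome 2, 10056016 to 10080510), dropped from 262, 236 and 236 CPM to 220, 215 and 212 CPM, with a log2 fold change of -0.21 ± 0.05 and an edgeR adjusted p of 0.0114. Atp5a1, the catalytic head's alpha subunit, fell by 0.13 on the log2 scale, from 1277, 1212 and 1248 CPM to 1171, 1169 and 1144 CPM. Its partner Atp5b, the beta subunit and the most abundant of all nuclear subunits per kb (508 CPM per kb untreated), had 2216, 2090 and 2149 CPM untreated and 2192, 2139 and 2091 CPM with HOCl. Those groups overlapped, with -0.03 ± 0.05. The small subunit Atp5k went from 79.5, 63.2 and 62.3 CPM to 55.3, 59.3 and 57.2 CPM, and Atp5o, of the peripheral stalk, from 76.2, 57.6 and 57.0 CPM to 52.5, 54.2 and 51.7 CPM.

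The 3 genes Atp5g1, Atp5g2 and Atp5g3 encode the same mature ring subunit c and were read apart. Atp5g1 fell from 134, 118 and 118 CPM to 109, 111 and 107 CPM, and Atp5g3 from 465, 406 and 400 CPM to 382, 391 and 354 CPM, both without overlap. Atp5g2 did not pass, at 129, 133 and 133 CPM untreated and 130, 126 and 126 CPM with HOCl. The difference between the 3 genes was not tested.

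**Figure D4:**
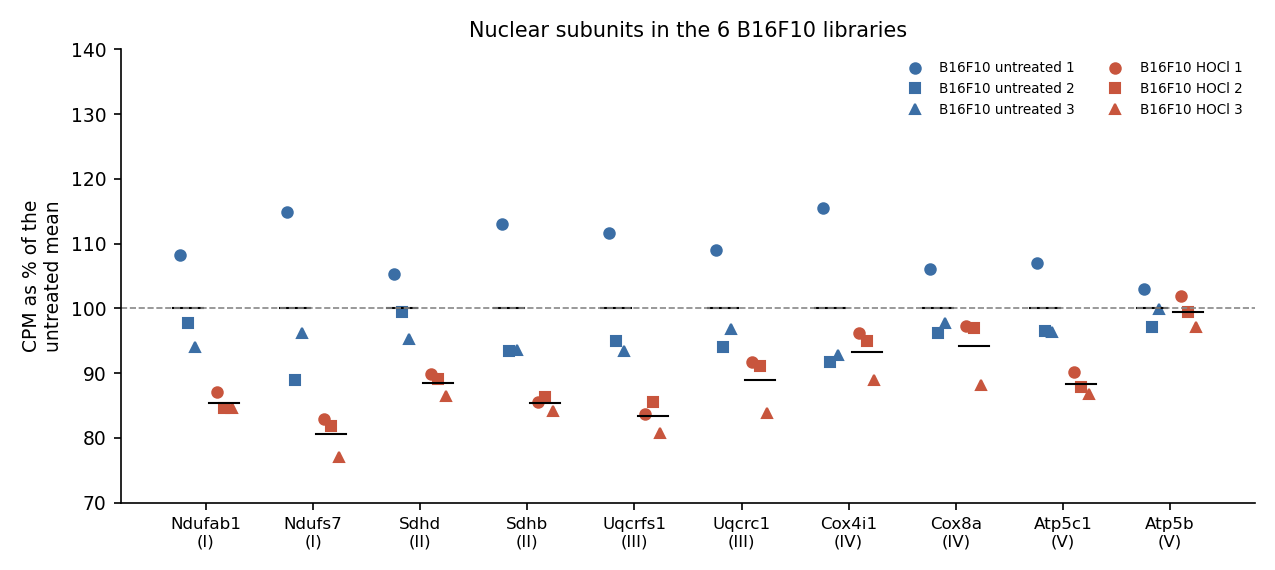
CPM of 10 nuclear subunits in each B16F10 library as a percentage of the untreated mean (vertical axis, starting at 70), with the complex in brackets. Blue symbols are untreated and red symbols HOCl libraries, and black bars are group means. The groups were separate for Ndufab1, Ndufs7, Sdhd, Sdhb, Uqcrfs1, Uqcrc1 and Atp5c1 and overlapped for Cox4i1, Cox8a and Atp5b.

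Leaving out single libraries changed how many of these calls stood. Ndufab1, Ndufs7 and Uqcrfs1 remained past the threshold in all 6 such fits, while the other 22 were lost in at least 1. Without HOCl replicate 1, 2 or 3, only 11, 7 and 3 nuclear subunits fell, with medians of -0.21, -0.20 and -0.14. These are 13.6%, 8.64% and 3.70% of the 81, where 8.80%, 8.68% and 8.55% of all genes tested fell in the same fits. Without HOCl replicate 2 or 3 the share of nuclear subunits that fell was thus no higher than that of all genes. Without untreated replicates 1, 2 and 3 there were 28, 28 and 29, or 34.6%, 34.6% and 35.8%, against 15.9%, 11.4% and 10.7% of all genes. Library totals in place of TMM scaling gave 15 (18.5%), against 11.2% of all genes. They moved the median log2 fold change of all genes from -0.01 to 0.02.

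The authors' deposited table, which does not name its groups by treatment, gave 36 of 80 nuclear subunits with an adjusted p under 0.05 and a log2 fold change below 0. These included all 25 found here. Of all genes with an adjusted p there, 14.7% were lower and 16.3% higher.

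Mitochondrially encoded subunits had 0 of 13 past the threshold in edgeR. In that test 2 of 13 (mt-Co2 and mt-Cytb) had an unadjusted p under 0.05, as did 6294 of all 16082 genes tested. DESeq2 called 0 of the 13 as well. Their median log2 fold change was -0.12, with 10 below 0. Summed, they took 0.556%, 0.672% and 0.476% of the gene counts untreated and 0.461%, 0.540% and 0.555% with HOCl, so that the groups overlapped and the untreated libraries spread more widely than the groups differed. Nuclear subunits thus held 2.75, 1.99 and 2.82 counts for each mitochondrial subunit count untreated and 2.86, 2.42 and 2.25 with HOCl. Here untreated replicate 2, and not replicate 1, was the highest library, for 9 of the 13 genes.

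mt-Co1, the catalytic subunit of complex IV (mitochondrial genome, 5328 to 6872), had 1851, 2419 and 1693 CPM untreated and 1711, 1958 and 2097 CPM with HOCl. mt-Cytb, the mitochondrially encoded subunit of complex III (14145 to 15288), had 1279, 1527 and 1073 CPM against 918, 1125 and 1126 CPM, a log2 fold change of -0.32 ± 0.13 with an edgeR adjusted p of 0.0949. Its groups overlapped in untreated replicate 3. mt-Nd1, a membrane subunit of complex I, had 1028, 1053 and 760 CPM untreated and 800, 944 and 925 CPM with HOCl. The complex I genes mt-Nd2, mt-Nd4 and mt-Nd6 had log2 fold changes of -0.21, -0.28 and -0.21 and mt-Nd5 had -0.04, with overlap in each. mt-Atp8 was the only member of this set whose groups did not overlap, where 25.2% of all genes tested were higher and 18.4% lower without overlap. It had 0.668, 0.714 and 0.741 CPM untreated and 0.898, 1.12 and 1.03 CPM with HOCl. These values rested on 34 to 59 counts a library, and the adjusted p of mt-Atp8 was 0.173 in edgeR. Without untreated replicate 3, 6 of the 13 (mt-Nd1, mt-Nd2, mt-Nd4, mt-Nd6, mt-Co2 and mt-Cytb, named after their values were seen) were called lower. In that fit 10.7% of all genes were lower.

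The levels of the 13 differed far more among themselves than between groups. Per kb of exon, untreated B16F10 had 1287 CPM of mt-Co1, 1130 of mt-Cytb and 989 of mt-Nd1, but 33.2 of mt-Atp6, 17.4 of mt-Co3, 14.6 of mt-Co2, 7.68 of mt-Nd3, 3.47 of mt-Atp8 and 1.596 of mt-Nd4l. Of these 6 low genes, all but mt-Atp8 have near-identical annotated copies of nearly their whole length in the nuclear genome, while mt-Atp8 matches a copy only over the 43 bases it shares with mt-Atp6. A block on chromosome 1 (24611535 to 24616197, GRCm38) holds pseudogenes that match mt-Co2, mt-Atp6, mt-Co3 and mt-Nd4l at 100% and mt-Nd3 at 99.7% over nearly their whole length, 63.6% of the length of mt-Nd4 at 100%, and 31.3% of the length of mt-Co1 at 99.8%. mt-Nd1 had no such match. The first 60 bases of mt-Co2 and of 2 of its nuclear copies, from GENCODE M21, show how little could tell reads apart. Capitals mark bases that differ from mt-Co2.
mt-Co2 (chrM:7013-7696): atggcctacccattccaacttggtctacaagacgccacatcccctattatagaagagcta
Gm28661 (chr1:24614885-24615565): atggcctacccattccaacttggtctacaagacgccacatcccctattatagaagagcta
Gm13341 (chr2:22587291-22587962): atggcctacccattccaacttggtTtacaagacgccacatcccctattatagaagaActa
Gm28661 is identical to mt-Co2 over 681 bases, and Gm13341 has 95.9% identity over 684.

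The copies of mt-Co2, mt-Co3 and mt-Atp6 had about as many counts as the genes. Gm28661 had 653, 576 and 355 counts untreated where mt-Co2 had 700, 510 and 363, and 380, 421 and 387 with HOCl where mt-Co2 had 390, 408 and 456. Gm10925, the copy of mt-Atp6, had 2010, 1135 and 991 counts untreated against 1785, 1025 and 794 of mt-Atp6. The copy of mt-Nd3 had more than the gene, with 464, 298 and 243 counts untreated against 157, 144 and 112. For mt-Co1, Gm29216 had 453, 308 and 218 counts against 113576, 115234 and 77689, and Gm13340 on chromosome 2, which matches all of mt-Co1 at 97.6%, had 1525, 1498 and 1004. How the authors treated reads that map to several places is not given in the sources used here, so the counts of mt-Co2, mt-Co3, mt-Atp6, mt-Nd3 and mt-Nd4l may be partial and their levels are uncertain. Neighbouring genes also overlap, mt-Atp8 and mt-Atp6 by 43 bases, mt-Nd4l and mt-Nd4 by 7, and mt-Atp6 and mt-Co3 by 1. mt-Nd5 and mt-Nd6, on opposite strands, overlap by 14 bases.

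Summing each gene with its copy, a step chosen after seeing the data, moved 1 call. mt-Co2 then had -0.37 with an edgeR adjusted p of 0.0388, in place of -0.32 ± 0.13 and 0.0837, and the copy alone had -0.42. Over its alternatives the adjusted p of mt-Co2 ran from 0.00993 to 0.798. mt-Atp6 had -0.09 alone and -0.13 with its copy, and mt-Co3 0.09 and 0.10. With the length offset mt-Co3 was instead called higher (0.22, edgeR adjusted p 0.0441).

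**Figure D5:**
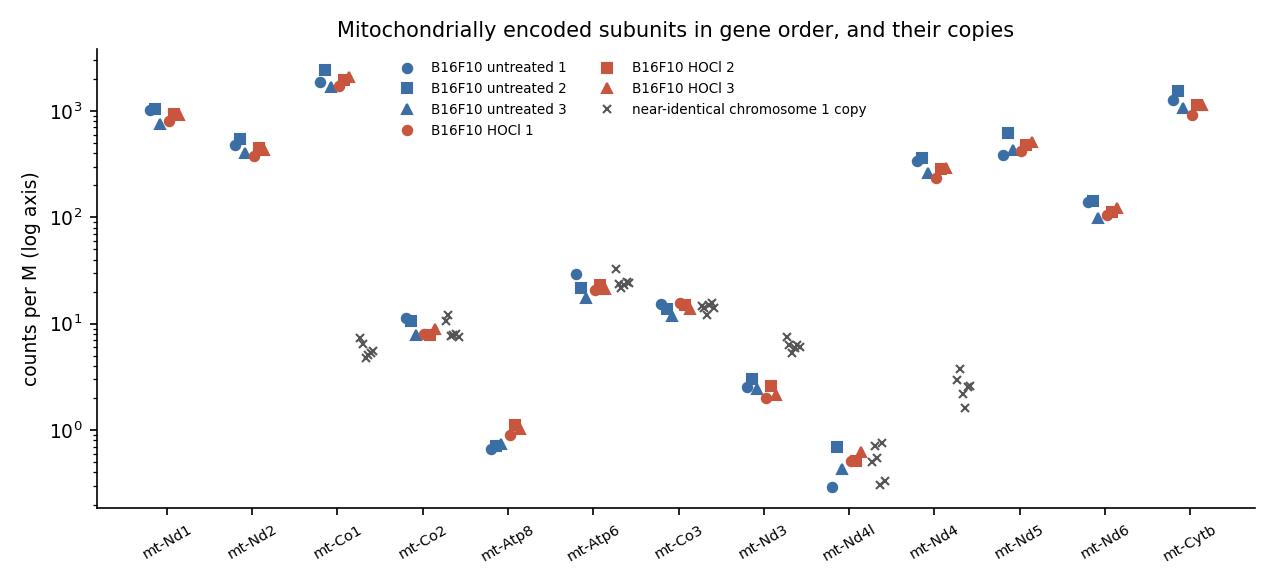
Counts per M gene counts (vertical log axis) of the 13 mitochondrially encoded subunits in their order along the mitochondrial genome, in each B16F10 library (blue untreated, red HOCl), with their near-identical chromosome 1 copies as grey crosses. Genes copied over nearly their whole length stood below 30 CPM, beside copies of like level except for mt-Nd3, whose copy lay higher, while mt-Co1 and mt-Nd4, which that block copies in part, stood far above theirs.

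Assembly factors passed the threshold in both directions, as did all genes tested, of which 14.7% rose and 13.5% fell. Of the 8 Ndufaf genes, Ndufaf2 and Ndufaf6 fell and Ndufaf1 rose, from 23.3, 20.4 and 20.4 CPM to 26.6, 24.9 and 25.9 CPM (log2 fold change 0.24 ± 0.07, edgeR adjusted p 0.0258). In the wider list of complex I assembly genes, which includes these, 3 fell and 2 rose of 15 tested, with Nubpl, an iron-sulfur cluster carrier, at -0.38 and Tmem186 at 0.23. For complex IV assembly 4 fell and 2 rose of 22 tested: Cmc2 (-0.43), Higd1a (-0.30), Coa3 (-0.27) and Higd2a (-0.21) against Coa7 (0.22) and Coa5 (0.15). Complex III assembly had 1 of 6 lower, Uqcc2 (-0.26), which is needed to make cytochrome b. Complex V assembly had 1 of 4 lower, Tmem242 (-0.21), and complex II assembly had 0 of 4 past the threshold in edgeR and 0 in DESeq2, with 0 of 4 at an unadjusted p under 0.05.

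Of 25 genes tested that act on the mitochondrial genome and its RNA, 6 were higher and 3 lower, against 14.7% and 13.5% of all genes tested. Tefm, the elongation factor of mitochondrial transcription, rose from 19.4, 16.9 and 18.4 CPM to 27.5, 29.4 and 29.4 CPM, with a log2 fold change of 0.63 ± 0.07 and an edgeR adjusted p of 8.70e-05. Mterf4, which takes part in mitochondrial ribosome assembly, rose by 0.51, and Fastkd1, Trmt10c, Tfb2m and Twnk by 0.21 to 0.31. Pnpt1 (-0.28) and Lrpprc (-0.19), which act in the decay and the stability of mitochondrial RNA, and the single-stranded DNA binding protein gene Ssbp1 (-0.16) fell. Tfam and Polrmt did not pass.

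Of 11 regulators of mitochondrial biogenesis tested, 4 rose and 0 fell, where 14.7% of all genes rose. Ppargc1a, the coactivator PGC-1 alpha, rose from 36.3, 41.3 and 42.7 CPM to 61.4, 58.8 and 61.7 CPM, a log2 fold change of 0.57 ± 0.07 with an edgeR adjusted p of 8.31e-05. Gabpa rose from 62.4, 68.6 and 72.8 CPM to 80.8, 84.0 and 89.9 CPM (0.30 ± 0.06), and Yy1 (0.19) and Ppard (0.18) rose as well. Nrf1 had 0.12 ± 0.06 without passing. The direction of these 4 was thus opposite to that of the subunits that fell, and no test of that relation was made. With the length offset, 5 of the 11 regulators rose and 1 fell, where 16.3% of all genes rose and 17% fell.

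Of 9 electron carriers and feeders of the chain tested, 5 fell and 0 rose, where 13.5% of all genes fell. Prodh, proline dehydrogenase, dropped from 72.2, 68.0 and 64.1 CPM to 44.4, 46.2 and 46.6 CPM (-0.60 ± 0.06, edgeR adjusted p 2.88e-05). Dhodh, which passes electrons from pyrimidine synthesis to coenzyme Q, went from 29.9, 26.9 and 29.4 CPM to 20.0, 20.4 and 18.7 CPM. Cyc1 (-0.20) and Cycs (-0.19), cytochromes c1 and c, fell, as did Chdh, which was near 1 CPM. In the energy exchange list 5 of 9 fell: the ATP/ADP carriers Slc25a4 (-0.40) and Slc25a5 (-0.26) and the outer membrane channels Vdac1 (-0.19), Vdac2 (-0.26) and Vdac3 (-0.15). Slc25a4 had 653, 569 and 583 CPM untreated and 478, 471 and 444 CPM with HOCl. Coenzyme Q synthesis had 2 of 13 lower, near the share of all genes, Coq7 (-0.27) and Coq2 (-0.22).

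T cells gave values only, since there was 1 HOCl library. The untreated T cell libraries also held B cell markers, which summed to 1260 and 2358 CPM beside 4765 and 4843 CPM of T cell markers. The part of B cells in the values below was not tested. Nuclear subunits took 0.508% and 0.6996% of the gene counts in untreated T cells, below every B16F10 library. Of the 76 nuclear subunits at 10 CPM or more in untreated B16F10, 65 were lower in both untreated T cell libraries than in all 3 untreated B16F10 libraries, and 2 were higher, Cox7a2l and Ndufa6. Ndufa4 differed most, with 44.9 and 38.1 CPM in untreated T cells against 514, 442 and 439 CPM. Sdhb had 55.7 and 57.0 CPM there. Cox7a2l had 306 and 470 CPM in untreated T cells against 89.3, 71.0 and 76.0 CPM. Mitochondrially encoded subunits went the other way, with 1.49% and 1.91% of the counts.

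The T cell HOCl library stood apart from the other 8. With the fewest gene counts (12.8 M), it had 44225 genes above 0, against 22855 to 25907 in the others. Mitochondrially encoded subunits took 35.4% of its gene counts, and each of the 13 stood at 11.7 to 34.1 times its mean CPM in untreated T cells. mt-Co1 had 154607 CPM there, against 6955 and 10438 CPM. Nuclear subunits took 0.509%, between the untreated T cell values. With the genes of the mitochondrial genome left out of the total, they took 0.814%, above the untreated 0.516% and 0.715%. The melanocyte markers summed to 6909 CPM in that library against 103 and 26.0 CPM in untreated T cells, and the T cell markers to 680 CPM against 4765 and 4843 CPM, so its values may not stand for T cells. These markers' part in the mitochondrial share was not tested.

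A few members shared sequence with other genes. Ndufb4c is identical to Ndufb4 over its coding sequence and had under 2 CPM, and Cox6c2 has 97.0% identity to Cox6c, so their counts are uncertain. Atp5o appeared under 2 gene IDs, of which 1 was at 0 in all 9 libraries.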

How the data were processed

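RNA sequencing libraries of 6 B16F10 and 3 CD8+ T cell samples were used. Per the submitters' processing notes, the authors used FastQC 0.11.8, STAR 2.7.1a, featureCounts 1.6.0, DESeq2 1.22.2 and the mm10 build. How multi-mapping reads were handled, which annotation was used and whether strand was counted is not given in the sources used here. The deposited files hold unnormalised counts per gene ID. The authors' deposited tables hold log2 fold changes and adjusted p-values from their own comparison. Of 54838 gene IDs, 54809 were found in GENCODE M21 (GRCm38), which gave positions and lengths.

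The 6 B16F10 libraries were tested with edgeR 4.0.16 (R 4.3.3): filterByExpr by group, TMM scaling, the quasi-likelihood F test with robust dispersion and Benjamini-Hochberg adjustment over all genes tested, with a threshold of 0.05. CPM are counts per M of a library's gene counts, without TMM. Levels per kb use the union of exons. Gene counts of 45.9 to 61.3 M a B16F10 library leave little counting error. Intervals and floors (3 counts) cover counting error only. On simulated counts for this comparison (15796 genes), 31.6% of 95 genes changed by 0.3 (log2) and 84.5% of 97 changed by 1 were recovered, and 10 of 122 calls were unchanged genes. The simulation changed no other genes, where 4544 of 16082 were called in the data. It drew each gene independently, without the length trend, so these rates may not hold for the data. Replicates differed by more than sampling noise (chi-square per degree of freedom 3.73 to 23.2 in B16F10 and 393 between the untreated T cell libraries). Alternatives were other scaling, filters, DESeq2 1.42.0, a replicate block, all 9 libraries in 1 fit and leaving out each library. A length offset, summed mitochondrial copies and another transcript length were chosen after seeing the data.

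Named members were the 4 called per complex and direction with the smallest adjusted p, the 2 highest per kb in each complex, 5 mitochondrial genes, paired isoforms and up to 2 called genes per direction of the other lists. Other genes named were chosen after their values were seen. The members and lists were chosen with earlier results of these data known. T cell libraries entered no test, having 1 HOCl library.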

Additional observations from a re-analysis of the deposited data

Results flagged for a closer look

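Mitochondrially encoded subunits took 35.4% of the gene counts in the T cell HOCl library, a library outside the tested comparison, against 1.49% and 1.91% in the untreated T cell libraries. With 1 such library the difference has no replicate check and was not tested.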

How the results depend on the processing

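In B16F10, 25 nuclear subunits were lower under the design as reported. The count was 15 with library totals in place of TMM, 49 with no filter on low counts, 51 with a replicate block and 0 with all 9 libraries in 1 fit, where 26 of all genes were lower and 11 higher. It was 36 with DESeq2, 26 with a stricter filter, 23 with DESeq2 size factors, 21 with library sizes from nuclear genes and 25 with the length offset. The cause of these differences was not tested. The counts by complex come from the same fits, with the same shares of all genes. Library totals gave 9 (I), 1 (III) and 3 (V). No filter gave 7 (III), 7 (IV) and 11 (V), and the replicate block 22 (I), 7 (III), 7 (IV) and 12 (V). DESeq2 gave 6 (III) and 2 (IV), and all 9 libraries 0 for complexes I, II, III and V. The length offset moved the median log2 fold change to -0.017 in complex IV and -0.098 in complex V. Leaving out 1 library gave 1410 to 2634 lower among all genes, 3 to 29 nuclear subunits, 2 to 14 in complex I, 0 to 3 in II, 1 to 5 in III, 0 to 2 in IV and 0 to 8 in V. The mitochondrial count ran from 0 to 6. It was 2 with no filter (mt-Nd2 and mt-Co2), 1 with the stricter filter (mt-Cytb) and 1 with summed copies (mt-Co2), and 1 gene was higher with the length offset (mt-Co3). The length offset turned Ndufa1 to 0.034, Cox8a to 0.0068, Atp5b to 0.00096, mt-Atp6 to 0.038 and Atp5g2 to 0.041 on the log2 scale. Leaving out 1 library gave mt-Co1 -0.17 to 0.090 (above 0 without untreated replicate 2 or HOCl replicate 1), mt-Atp6 -0.25 to 0.14 (above 0 without untreated replicate 1) and Cox7a2l -0.059 to 0.12 (below 0 without untreated replicate 2, untreated replicate 3 or HOCl replicate 2). Same-numbered libraries did not deviate together (correlations 0.035, -0.003 and 0.001), so the replicate block is no pairing known from the labels. Depth limits the genes under 1 CPM, such as mt-Atp8, mt-Nd4l and the tissue isoforms of complex IV. Levels per kb by longest or principal transcript moved Atp5b from 508 to 1123 CPM per kb and Sdhb from 206 to 374 and 404, and left Ndufa1 at 150, which was then the third of complex I.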
